A study of Mus musculus with 39 samples.

Results

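The comparison is between astrocytes of the nucleus accumbens (NAc) from mice that became susceptible and from mice that stayed resilient after chronic social defeat stress. Its members are 15 of the 39 libraries of the series, chosen by the labels alone: 8 titled as susceptible and 7 titled as resilient in this region. In the defeat procedure male mice face an aggressor again and again and are then sorted by how much they avoid or seek social contact. A further 7 NAc libraries came from control mice, and 17 libraries carry the tissue label PFC, read here as prefrontal cortex, with 6 susceptible, 5 resilient and 6 control libraries. All cells were isolated with beads against ACSA-2, which astrocytes carry on the beta-2 subunit of the sodium pump (Atp1b2), from tissue punched on both sides of the brain. The labels' protocol names the NAc as the source of every library, including those labelled PFC. The labels give no strain, age, transgene or drug. The labels' mouse number differs for every library and equals its sample number, but 16 NAc libraries have a PFC neighbour in that numbering and all 16 such couples share a group, so whether both regions came from 1 mouse cannot be told from the labels. The p-values below measure the spread between libraries as labelled.

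The NAc is a part of the ventral striatum that weighs reward and aversion, and most of its neurons are inhibitory projection neurons. Astrocytes there take up glutamate and potassium, supply lactate and cholesterol, and couple to each other through connexins. CREB, encoded by Creb1, is a transcription factor that is phosphorylated when cyclic AMP or calcium rises, binds the cyclic AMP response element (CRE) in promoters, and recruits the coactivators CBP (Crebbp) and p300 (Ep300) and the CRTC proteins. The series' title ties astrocytic CREB in the NAc to stress susceptibility, so the CREB family and genes known to respond to CREB are described beside the astrocyte genes.

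Promoters of 5 genes that recur below are printed because they show which of them hold the element that CREB binds. Each runs from 250 bases before to 50 bases after the gene's start in RefSeq on GRCm38.p6 (mm10), 5′ to 3′ on the gene's own strand, and capitals mark the full CRE (TGACGTCA) or its short form TGACG, searched on both strands, so that a short form on the other strand reads CGTCA. Car4 lies at chr11:84957504-84957803 on the plus strand, Iglon5 at chr7:43490162-43490461 on the minus strand, Hspb1 at chr5:135887669-135887968 on the plus strand, Fos at chr12:85473640-85473939 on the plus strand and Btg2 at chr1:134079106-134079405 on the minus strand.
Car4: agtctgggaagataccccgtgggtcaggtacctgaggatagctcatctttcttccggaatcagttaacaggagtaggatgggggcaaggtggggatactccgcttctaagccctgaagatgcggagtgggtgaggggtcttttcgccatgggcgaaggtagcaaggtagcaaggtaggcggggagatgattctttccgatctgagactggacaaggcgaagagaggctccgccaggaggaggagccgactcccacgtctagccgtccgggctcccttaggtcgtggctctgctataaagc
Iglon5: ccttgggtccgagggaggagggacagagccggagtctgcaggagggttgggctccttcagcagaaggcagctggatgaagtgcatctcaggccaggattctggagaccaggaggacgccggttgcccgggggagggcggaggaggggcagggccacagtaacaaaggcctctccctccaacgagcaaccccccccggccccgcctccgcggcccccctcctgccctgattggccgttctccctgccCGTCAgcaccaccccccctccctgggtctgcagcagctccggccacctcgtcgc
Hspb1: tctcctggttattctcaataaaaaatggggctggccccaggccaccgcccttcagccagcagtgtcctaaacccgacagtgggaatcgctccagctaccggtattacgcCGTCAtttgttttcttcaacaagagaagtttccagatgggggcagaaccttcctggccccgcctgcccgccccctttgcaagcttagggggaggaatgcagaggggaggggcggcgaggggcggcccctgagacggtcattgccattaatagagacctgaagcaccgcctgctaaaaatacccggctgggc
Fos: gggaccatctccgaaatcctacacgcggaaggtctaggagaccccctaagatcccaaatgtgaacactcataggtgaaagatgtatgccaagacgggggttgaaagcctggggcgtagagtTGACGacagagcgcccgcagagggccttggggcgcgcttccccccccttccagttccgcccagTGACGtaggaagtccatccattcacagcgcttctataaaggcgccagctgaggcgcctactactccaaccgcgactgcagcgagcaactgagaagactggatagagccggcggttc
Btg2: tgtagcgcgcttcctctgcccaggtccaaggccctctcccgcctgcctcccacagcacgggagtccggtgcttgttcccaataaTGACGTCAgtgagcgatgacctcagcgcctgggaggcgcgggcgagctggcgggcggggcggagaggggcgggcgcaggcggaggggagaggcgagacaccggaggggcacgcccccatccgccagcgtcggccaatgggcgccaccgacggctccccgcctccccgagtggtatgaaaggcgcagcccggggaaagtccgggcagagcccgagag
The Btg2 window held the full element, with the short form read on both strands inside it. The Fos window held 2 short forms, those of Iglon5 and Hspb1 held 1 each, and that of Car4 held none. Among the 27025 genes of the promoter table, 2.03% held the full element and 23% a short form in this window. These matches describe letters only.

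Library totals were 7684010 to 26792095 counts in susceptible, 3156259 to 37339379 in resilient and 941450 to 21868887 in control mice. The counts cover whole gene spans, introns included, and part of them fell on genes that are silent in brain. This background cover was read from 1479 odorant, vomeronasal and trace-amine receptor genes, which are mostly silent outside sensory tissue, as their FPKM (counts scaled by gene span and library total) in percent of the FPKM of a perfectly even cover. It was 56.0% ± 7.95 in susceptible (SD, n = 8), 64.6% ± 10.5 in resilient (n = 7) and 53.2% ± 9.25 in control libraries (n = 7). Susceptible libraries ran from 41.4% to 64.8% with a median of 58.3%, and resilient ones from 51.1% to 81.1% with a median of 65.3%, so the groups overlapped. The difference of -8.56 percentage points did not pass an exact two-sided permutation test over the 15 libraries (p = 0.0962, 6435 arrangements). Without NAc resilient replicate 1 it was -10.8 points (exact p = 0.0366), and with silent genes of other organs in place of the receptor genes it was -3.07 points (exact p = 0.551).

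Below, a gene is called above background when its mean FPKM over the NAc libraries was at least 2 times the mean receptor-gene FPKM of 0.442, and strongly expressed at 4 times. Of 35943 genes tested, 10612 were above background and 2103 strongly expressed. Levels over background are per base of the whole gene span, introns included, while CPM (counts scaled by library total) are not per length. Both depend on gene structure, and neither ranks genes by RNA level. All 26 astrocyte identity genes were above background. Glul, the glutamine synthetase, stood 92.9 times and the sorted antigen Atp1b2 78.6 times over it. The glutamate transporters Slc1a2 and Slc1a3 stood 45.4 and 22.9 times and the folate enzyme Aldh1l1 2.71 times over background. Mbp, myelin basic protein, stood 9.52 times over background as well, so oligodendrocyte RNA was present. Also above background were 20 of 20 mature oligodendrocyte, 9 of 11 pericyte and smooth muscle and 8 of 14 endothelial genes. The counts were 7 of 18 for pan-neuronal, 6 of 16 for striatal projection neuron and 4 of 20 for microglia and macrophage genes. No tested cell type marker was at 0 in every library of a group. The same held for the silent genes of other organs, so this does not show which cells were present. NAc resilient replicate 1 stood apart from its group, with a summed level of the 26 astrocyte identity genes of 16528 CPM, against 3383 to 8839 CPM in the other resilient libraries.

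**Figure D1:**
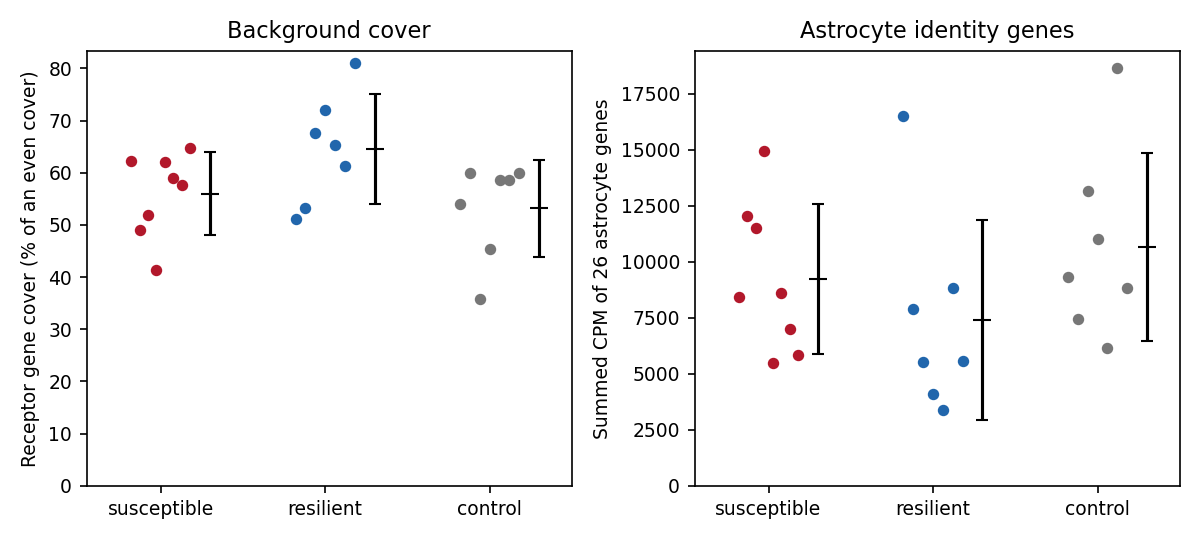
Background cover (left, receptor-gene FPKM in percent of an even cover) and summed CPM of 26 astrocyte identity genes (right) in NAc libraries, one point per library, with mean and SD bars, for susceptible (n = 8), resilient (n = 7) and control mice (n = 7). Resilient libraries reach 81.1% cover, and NAc resilient replicate 1 stands at 16528 CPM while the other resilient libraries lie between 3383 and 8839 CPM.

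No gene differed between susceptible and resilient NAc astrocytes at an adjusted p under 0.05 in edgeR's quasi-likelihood test with Benjamini-Hochberg adjustment (0 of 35943 genes, 0%, smallest adjusted p 0.998), nor in DESeq2 or limma-voom. At an unadjusted p under 0.05 there were 1042 genes (2.90% of those tested), 399 higher (1.11%) and 643 lower (1.79%) in susceptible mice, where about 1797 would be reached if no gene changed. All genes named below therefore failed the correction, and their differences are given as values. Most genes above background had higher values in susceptible mice: 77.6% of the 10612 had a log2 fold change above 0, with a median of 0.13 (-0.00 with scaling factors from these genes alone), against 53.5% and 0.02 over all genes. Among them 272 (2.56%) reached an unadjusted p under 0.05, 237 higher (2.23%) and 35 lower (0.33%), but 81 higher and 97 lower with scaling factors from these genes alone, and 125 higher and 159 lower with the background percent of each library as a covariate. Receptor genes went the other way, with 17.0% of 1334 above 0, a median of -0.20, and 95 (7.12%) at an unadjusted p under 0.05, 1 higher (0.075%) and 94 lower (7.05%) in susceptible mice.

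**Figure D2:**
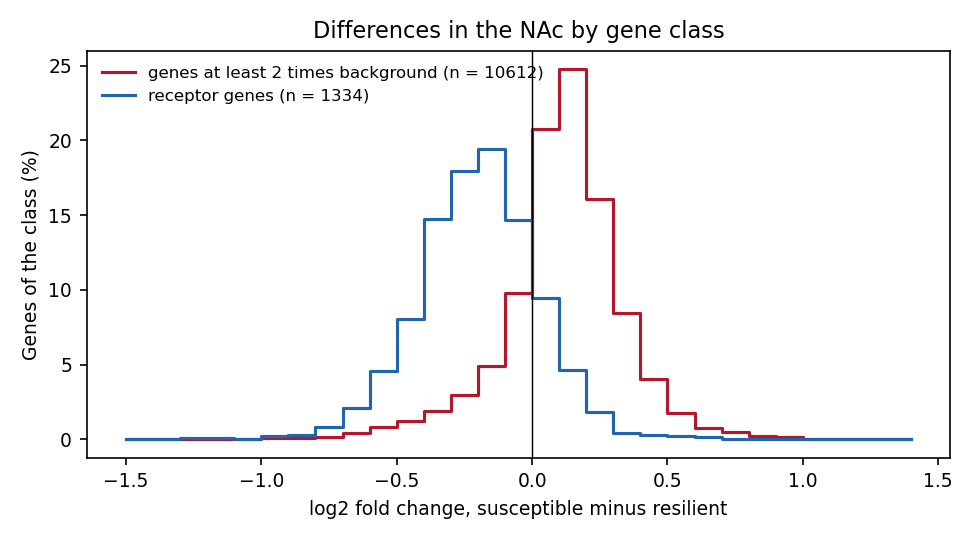
Log2 fold changes of susceptible minus resilient NAc libraries (x axis, bins of 0.1) for genes at least 2 times background and for receptor genes, as percent of each class (y axis). The class above background peaks to the right of 0 with a median of 0.13 (-0.00 with scaling factors from that class alone), and receptor genes peak to the left of it with a median of -0.20.

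The shift of expressed genes depended on how the libraries were scaled. With scaling factors from genes above background alone, which centre that class by construction, the median of all genes was -0.12 and that of the class -0.00. With the background percent of each library as a covariate that class stood at -0.01. That percent is scaled by the library total, so it falls where other genes take more of the counts. The covariate is therefore not independent of the levels it adjusts, here and in all values below that use it. With the background FPKM of each library subtracted, on the log2(FPKM + 0.5) scale, its median was 0.21. Strongly expressed genes had a median of 0.24, with 79.0% above 0, but of 0.13 with the factors from genes above background and -0.06 with the covariate. The part of background cover in the shift was not tested.

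By the naming rule, 150 genes above background were higher and 2 lower in susceptible mice at an unadjusted p under 0.05, of 6642 named genes with an average log2 CPM above 1 that were open to it. The smallest p belonged to Car4, carbonic anhydrase 4, a membrane-anchored enzyme that interconverts carbon dioxide and bicarbonate (chr11:84957786-84966044). Susceptible libraries ranged from 9.12 to 15.4 CPM with a median of 12.9, and resilient ones from 7.18 to 11.3 with a median of 9.10. Of 8 susceptible libraries 7 lay above the highest resilient one, the log2 fold change was 0.49 ± 0.13 (SE, unadjusted p = 0.000713, adjusted p = 0.998), and control libraries had a median of 12.9 CPM. Its difference was 0.36 with background as a covariate and 0.48 without NAc resilient replicate 1.

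Zfp830, a nuclear zinc finger protein (chr11:82764345-82765935), had 2.62 to 4.84 CPM in susceptible libraries (median 4.06), against 0.979 to 3.12 in resilient ones (median 2.27). Again 7 of 8 susceptible libraries exceeded every resilient one, with a log2 fold change of 0.85 ± 0.23 (unadjusted p = 0.000933). Adprhl2, which encodes ARH3, the hydrolase that removes ADP-ribose from serines, had medians of 7.48 CPM in susceptible and 5.82 CPM in resilient libraries, a difference of 0.52 ± 0.16 on the log2 scale. Iglon5, a membrane-anchored cell adhesion molecule of the immunoglobulin family (chr7:43472904-43490075), was the 1 gene above background whose groups did not overlap (0.00942% of 10612 genes, against 0.025% of all genes tested). It had 19.4 to 27.6 CPM in susceptible libraries (median 21.6), and resilient libraries held 15.3 to 19.4 CPM (median 18.6). The lowest susceptible and the highest resilient library were nearly equal, the log2 fold change was 0.34 ± 0.11, and control libraries overlapped both groups at 14.0 to 23.8 CPM.

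The other genes with the smallest p were spread over unlike functions. Lgals2, a galectin, differed by 0.59 ± 0.19 on the log2 scale, and Nol3, a repressor of apoptosis, by 0.43 ± 0.14. Mrpl54, a protein of the mitochondrial ribosome, differed by 0.73 ± 0.25 and Tgfb1i1, the focal adhesion protein Hic-5, by 0.40 ± 0.13. An antisense gene overlaps 26.4% of the Nol3 span, and the strand setting of the counting is not given in the sources used here, so its reads cannot be assigned with certainty.

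Beside these 8, the naming rule took the 4 genes with the next largest differences at an unadjusted p under 0.05. Of these, Gpx1 and Jun stood 4.49 and 6.99 times over background, and Tsr3 and Eid2b 2.61 and 3.34 times. Gpx1, a glutathione peroxidase that removes hydrogen peroxide, had 1.51 to 6.82 CPM in susceptible libraries (median 3.29), against 0.303 to 4.23 in resilient ones (median 1.63), a log2 fold change of 0.77 ± 0.34. Jun, a subunit of the AP-1 transcription factor, had 5.07 to 20.9 CPM in susceptible libraries (median 9.30), while resilient libraries held 2.94 to 14.0 (median 4.44), a log2 fold change of 0.75 ± 0.35. All 8 susceptible libraries lay above the resilient median for Jun, and 2 lay above the highest resilient library. With background as a covariate the difference was 0.27 for Jun and 0.51 for Gpx1, and the antisense gene Junos overlaps 21.6% of the Jun span. Tsr3, an enzyme that modifies ribosomal RNA, differed by 0.72 ± 0.30, with 1 resilient library at 0, which allows up to 0.950 CPM there (3 counts of its total). Eid2b, a member of a family of p300-binding inhibitors of differentiation, differed by 0.71 ± 0.29.

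**Figure D3:**
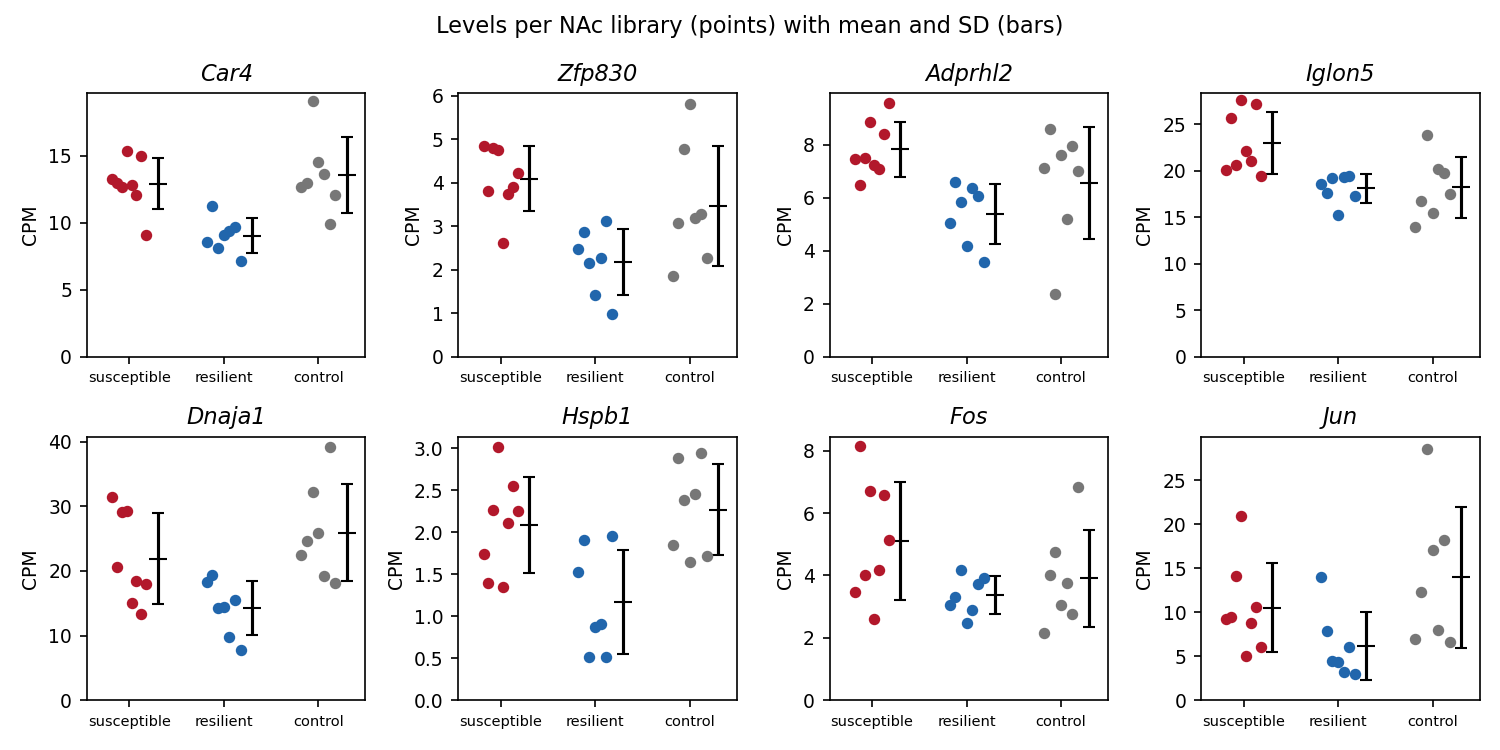
CPM (y axes, from 0) of 8 genes in NAc libraries of susceptible, resilient and control mice, one point per library, with mean and SD bars (n = 8, 7 and 7). For Iglon5 the groups do not overlap, but the lowest susceptible and the highest resilient library are nearly equal (19.44 and 19.40 CPM). Car4, Zfp830 and Adprhl2 have 7 of 8 susceptible libraries above the highest resilient one, and the other genes overlap further. No gene passed the adjustment.

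The 2 genes that the rule found lower in susceptible mice at an unadjusted p under 0.05 were both near background. Reg3g, a secreted antimicrobial lectin, had 1.10 to 3.05 CPM in susceptible libraries (median 1.89), against 2.12 to 5.55 in resilient ones (median 3.18), a log2 fold change of -0.68 ± 0.27 (unadjusted p = 0.0180). In 6 of 8 susceptible libraries it lay below every resilient one, yet it stood only 2.12 times over background. Olfr1415 is itself a receptor gene, at 2.17 times background, with a log2 fold change of -0.29 ± 0.14. The rule then filled its places with genes at an unadjusted p above 0.05, namely Tmem74, a transmembrane protein tied to autophagy (-0.31 ± 0.17), Ifitm7, of a family of interferon-induced membrane proteins (-0.30 ± 0.17), Tifab (-0.33 ± 0.19), Tmem95, a sperm membrane protein (-0.49 ± 0.28), Fam84a (-0.31 ± 0.18) and mt-Co3.

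The mitochondrial gene mt-Co3, a subunit of cytochrome oxidase, had 0.433 to 2.34 CPM in susceptible libraries, against 0.408 to 7.53 in resilient ones. Its log2 fold change was -0.96 ± 0.53, and -0.44 without NAc resilient replicate 1. It was -1.47 with background as a covariate and -1.01 with factors from genes above background. Among strongly expressed genes, 41 (1.95%) reached an unadjusted p under 0.05, 35 higher (1.66%) and 6 lower (0.285%) in susceptible mice, but 22 higher and 68 lower with background as a covariate, and 42 and 19 with factors from genes above background. Of this class, 4 more genes were chosen after their values were seen. Ppox, an enzyme of haem synthesis, had medians of 11.2 CPM in susceptible and 6.51 CPM in resilient libraries, with a log2 fold change of 0.54 ± 0.20, and all 8 susceptible libraries lay above the resilient median. Edf1, a ribosome-associated coactivator, differed by 0.57 ± 0.26, also with 8 of 8 above the resilient median. Hap1, which binds huntingtin, and the noncoding RNA Meg3 differed by -0.47 ± 0.38 and -0.59 ± 0.59. For both, 6 of 8 susceptible libraries lay above the resilient median, while the resilient maximum, 37 CPM for Hap1 and 533 CPM for Meg3, exceeded every susceptible library.

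Astrocyte identity genes had higher mean levels in susceptible than in resilient libraries without a call. All 26 had a log2 fold change above 0, from 0.11 to 0.61 with a median of 0.34, against 77.6% and 0.13 over all genes above background, and none reached an unadjusted p under 0.05. In bulk libraries fewer astrocytes and less RNA per astrocyte cannot be told apart. Their summed level was 5474 to 14944 CPM in susceptible libraries (median 8511), against 3383 to 16528 in resilient libraries (median 5567) and 6155 to 18639 in controls (median 9306). The median difference was 0.77 without NAc resilient replicate 1 and -0.03, with 10 of 26 above 0, when background was a covariate. It was 0.27 with factors from genes above background (25 of 26 above 0) and 0.53 with background subtracted (26 of 26).

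Among single astrocyte genes, Slc1a3 and Atp1b2 were highest in NAc resilient replicate 1. Slc1a3, the glutamate transporter GLAST, had 423 to 1441 CPM in susceptible libraries (median 713), against 250 to 1685 in resilient ones (median 409). Every susceptible library lay above the resilient median and none above the resilient maximum, which was NAc resilient replicate 1. The log2 fold change was 0.39 ± 0.40, and 0.86 without that library. Atp1b2 behaved alike at 0.36 ± 0.39, and 0.82 without it. Aqp4, the water channel of endfeet, had a log2 fold change of 0.52 ± 0.33. Gfap, the intermediate filament of reactive astrocytes, had medians of 28.9 CPM in susceptible and 18.7 CPM in resilient libraries (0.42 ± 0.26), but an antisense gene overlaps all of its span. Dio2, the deiodinase that makes active thyroid hormone, differed by 0.61 ± 0.32 and Aldh1l1 by 0.25 ± 0.18. With background as a covariate the signs turned for Slc1a3 (-0.03), Aldh1l1 (-0.03) and Atp1b2 (-6.61e-05), and Aqp4 stood at 0.19 and Gfap at 0.08.

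The lists of astrocyte tasks lay on both sides of the class median. Glutamate uptake and recycling had a median log2 fold change of 0.31 with 10 of 14 genes above 0. Its member Slc38a3, a glutamine exporter, had 52.9 to 199 CPM in susceptible libraries, against 41.2 to 158 in resilient ones (0.41 ± 0.32), and Grm5, a glutamate receptor at 1.26 times background, had a log2 fold change of -0.27 ± 0.14. Connexins and pannexins stood at 0.27 (6 of 7 above 0) and endfoot water and potassium channels at 0.16 (10 of 13). GABA handling stood at 0.08 (10 of 11) and calcium signalling at 0.02 (10 of 18). From the glutamate list on, the medians with factors from genes above background were 0.20, 0.13, 0.03, -0.04 and -0.12. With background as a covariate the medians were -0.01, -0.08, -0.06, -0.10 and -0.04 in that order. Genes of synapse formation and engulfment had a median of 0.13 (16 of 18 above 0), and those of extracellular matrix 0.14 (15 of 21). Both stood at 0.01 with factors from genes above background, and at -0.01 (9 of 18) and -0.05 (9 of 21) with the covariate. Pan-reactive astrocyte genes had a median of 0.26 (12 of 16), among them Serpina3n, a protease inhibitor, at 0.36 ± 0.19. The highest value of the list, 0.91, was also the highest of the heat shock list below. The pan-reactive median was 0.14 with factors from genes above background and 0.06 with the covariate, each with 11 of 16 above 0. Complement and neurotoxic-reactive genes had a median of 0.06 (10 of 14), or -0.09 with factors from genes above background and 0.09 with the covariate.

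Metabolic genes mostly had higher values in susceptible mice, again without calls. All 24 genes of cholesterol and fatty acid synthesis were above 0, with a median of 0.28, against 77.6% and 0.13 over genes above background. Of them 2, Fdps and Lss, were higher at an unadjusted p under 0.05, against 2.23% of genes above background. Hmgcs1, an early enzyme of the pathway, had 17.3 to 64.7 CPM in susceptible libraries (median 33.1), against 13.2 to 52.2 in resilient ones (median 18.6), a log2 fold change of 0.60 ± 0.31. Fdps, farnesyl diphosphate synthase, differed by 0.43 ± 0.19 and Lss, lanosterol synthase, by 0.27 ± 0.13, but other annotated genes overlap 89.7% and 44.1% of their spans. All 24 genes of glycolysis, glycogen and lactate were above 0 as well, with a median of 0.22 and Pfkl, a phosphofructokinase, at 0.33 ± 0.15. With factors from genes above background the medians were 0.18 (22 of 24 above 0) and 0.12 (18 of 24). They were 0.38 and 0.35 with background subtracted, each with 24 of 24 above 0. With background as a covariate the medians were 0.04 and -0.00. The 26 nuclear genes of the respiratory chain had a median of 0.21, all above 0, with Cox5b at 0.67 ± 0.38. Their median was -0.03 with 11 above 0 under that covariate. It was 0.10 with 19 above 0 under factors from genes above background, and 0.30 with 26 above 0 with background subtracted. The 12 genes of mitochondrial DNA stood at -0.01 with 6 above 0, among them mt-Atp6 at -0.48 ± 0.57, and at -0.28 with 0 above 0 under the covariate and 0.33 without NAc resilient replicate 1.

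Cytosolic ribosomal protein genes had the highest median of the 39 lists, 0.37, with 25 of 26 above 0 and none at an unadjusted p under 0.05. Among all genes above background 77.6% were above 0. Rps6, of the small subunit, had 7.83 to 25.9 CPM in susceptible libraries (median 11.4), while resilient libraries held 5.15 to 18.5 (median 6.83), a log2 fold change of 0.54 ± 0.30. Rpl15, of the large subunit, differed by 0.57 ± 0.30. These genes share sequence with many pseudogenes, so their counts are uncertain. Their median was 0.71 without NAc resilient replicate 1 and -0.01 with background as a covariate, with 12 of 26 above 0. It was 0.27 with factors from genes above background (25 of 26 above 0) and 0.50 with background subtracted (26 of 26).

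Heat shock and unfolded protein genes had a median of 0.33, with 28 of 31 above 0, against 0.13 and 77.6% over genes above background. Of the list, 4 genes (Hspb1, Dnaja1, Creld2 and Bag3) were higher and 0 lower in susceptible mice at an unadjusted p under 0.05, against 2.23% higher among all genes above background. Hspb1, a small heat shock protein, had 1.35 to 3.01 CPM in susceptible libraries (median 2.18), against 0.511 to 1.96 in resilient ones (median 0.909). Of 8 susceptible libraries 5 lay above the highest resilient one, and the log2 fold change was 0.91 ± 0.28 (unadjusted p = 0.00279). Dnaja1, a cochaperone of Hsp70, had 13.3 to 31.4 CPM in susceptible libraries (median 19.5), against 7.83 to 19.4 in resilient libraries (median 14.4), a log2 fold change of 0.59 ± 0.20. Creld2, induced by stress of the endoplasmic reticulum, differed by 0.43 ± 0.18, and Bag3, a partner of Hsp70 in autophagy, by 0.28 ± 0.13. With background as a covariate the list's median was 0.09 with 24 of 31 above 0, and the differences were 0.81 for Hspb1 and 0.40 for Dnaja1. The list's median was 0.20 with factors from genes above background (24 of 31) and 0.40 with background subtracted (29 of 31).

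CREB and its close relatives had small differences between the 2 stressed groups. Creb1 had 39.5 to 64.2 CPM in susceptible libraries (median 55.8), against 36.6 to 69.4 in resilient libraries (median 51.3), a log2 fold change of -0.05 ± 0.15. It stood at 1.73 times background, so part of its counts was background cover. Crem, an activator or repressor at the CRE depending on isoform, differed by -0.01 ± 0.12, and Atf1, the third close relative, by 0.02 ± 0.10. The sign of each of these 3 differences turned under at least 1 alternative. Of 15 genes of the CREB family and its coactivators, 11 were above 0, with a median of 0.06 (-0.06 with factors from genes above background, -0.09 with background as a covariate), and 0 reached an unadjusted p under 0.05. Creb3l2, a membrane-bound factor of the secretory pathway, had 115 to 130 CPM in susceptible libraries, against 102 to 119 in resilient ones, a log2 fold change of 0.12 ± 0.07 that was -0.03 with factors from genes above background. Crebbp differed by 0.18 ± 0.17, and by -0.05 with background as a covariate. RNA levels do not show phosphorylation of CREB.

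Genes known to respond to CREB had a median of 0.04 (-0.07 with factors from genes above background, -0.05 with background as a covariate). Of these 25 genes 15 were above 0, against 53.5% of all genes tested, and 1 was at an unadjusted p under 0.05, against 2.90%. That gene, Fos, an AP-1 subunit with 2 short forms in its promoter window above, had 2.59 to 8.14 CPM in susceptible libraries (median 4.64), against 2.48 to 4.19 in resilient ones (median 3.32). In 4 of 8 susceptible libraries it exceeded every resilient one, and the log2 fold change was 0.59 ± 0.24 (unadjusted p = 0.0199) and 0.50 with background as a covariate. Btg2, an antiproliferative gene with the full CRE in its window, had 4.87 to 12.4 CPM in susceptible libraries, against 3.68 to 9.65 in resilient ones, a log2 fold change of 0.43 ± 0.24. Of the other members, Arc, Egr1 and Nr4a1, all induced by neuronal activity, differed by 0.16 ± 0.26, -0.05 ± 0.21 and -0.03 ± 0.17. Over the 22 immediate early genes, 18 were above 0, with a median of 0.18, against 77.6% and 0.13 over genes above background. Fos and Jun were the 2 at an unadjusted p under 0.05, against 2.23% higher among genes above background and 1.11% among all genes tested. Of the 22 genes 15 were above background. The list's median was 0.05 with factors from genes above background and 0.15 with background as a covariate, each with 13 of 22 above 0. The 28 genes of cyclic AMP and PKA signalling had a median of 0.00 (-0.13 with those factors, -0.09 with that covariate), with 14 above 0.

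Hormone lists lay near the class median. Glucocorticoid receptors and targets had a median of 0.11 (-0.01 with factors from genes above background) with 14 of 19 above 0, thyroid hormone handling 0.17 with 8 of 10, and circadian clock genes 0.19 with 16 of 18. Per1, which both CREB and glucocorticoids induce, differed by 0.19 ± 0.31, and Tsc22d3, a glucocorticoid target, by 0.24 ± 0.24. With factors from genes above background the thyroid and clock medians were 0.04 and 0.08. With background as a covariate the 3 medians were -0.09, -0.01 and -0.04. Of all lists, 34 of 39 had a median above 0, against 20 with factors from genes above background and 15 with that covariate. In the fit without either, 21 of 39 had a median above that of genes above background, which was itself above 0.

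**Figure D4:**
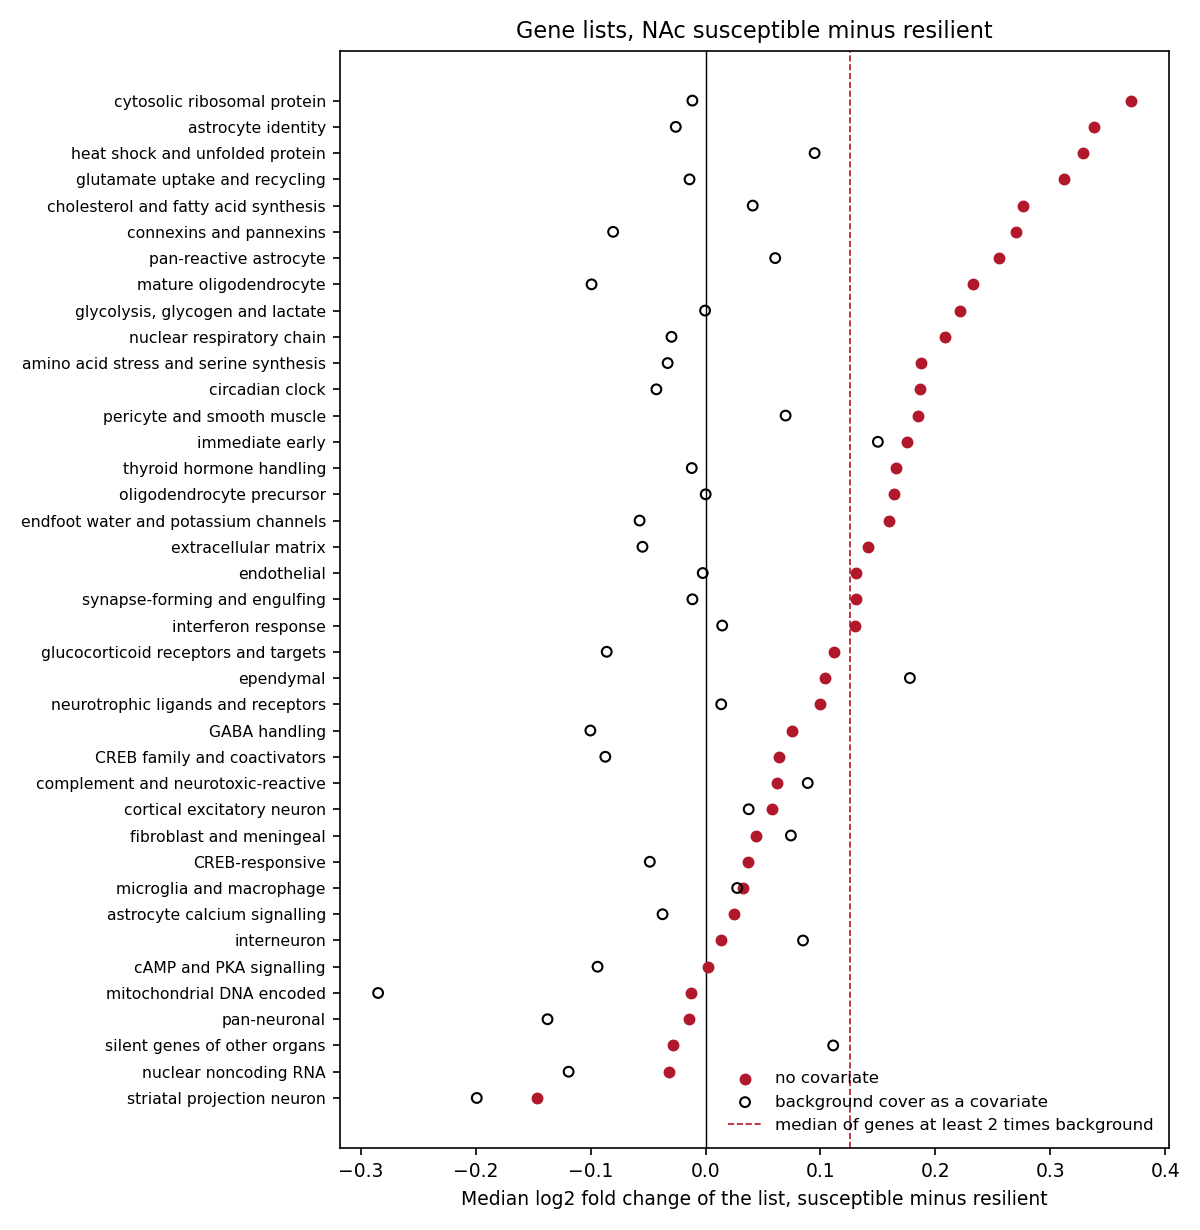
Median log2 fold change of susceptible minus resilient NAc libraries for 39 gene lists (rows), without a covariate (filled) and with background cover as a covariate (open). The dashed line is the median of genes at least 2 times background, 0.13, and 21 filled points lie above it. Above 0 lie 34 filled but 15 open points (20 with factors from genes above background, not drawn).

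Markers of other cell types had differences of unlike size. All 20 mature oligodendrocyte genes were above 0, against 77.6% of genes above background. Their median was 0.23, and -0.10 with background as a covariate (3 of 20 above 0). It was 0.10 with factors from genes above background (17 of 20) and 0.31 with background subtracted (20 of 20). Their summed level was 1052 to 4194 CPM in susceptible libraries (median 2012), against 971 to 3244 in resilient libraries (median 1339) and 1242 to 6636 in controls (median 2893). Mbp differed by 0.36 ± 0.37. Microglia and macrophage genes summed to 425 to 456 CPM in susceptible libraries and 412 to 469 CPM in resilient ones. Their median was 0.03 (-0.11 with factors from genes above background) with 11 of 20 above 0, and 4 of the 20 were above background. Laptm5, a lysosomal protein of leukocytes, was higher at 0.36 ± 0.17 and Cd163, a scavenger receptor of macrophages, lower at -0.29 ± 0.12. Both had an unadjusted p under 0.05, which 2.90% of all genes tested reached, and stood at 1.73 and 1.59 times background.

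Striatal projection neuron genes had the lowest median of the 39 lists, -0.15, with 1 of 16 above 0, 6 of 16 above background and none at an unadjusted p under 0.05. They summed to 1493 to 1756 CPM in susceptible libraries (median 1574), against 1451 to 2315 in resilient libraries (median 1559). Rarb, a retinoic acid receptor of striatal neurons, had 224 to 289 CPM in susceptible libraries, against 248 to 347 in resilient ones (-0.18 ± 0.10). The list's median was -0.01 with background subtracted. It was -0.27 with factors from genes above background (0 of 16 above 0) and -0.20 with background as a covariate (1 of 16). Pan-neuronal genes had a median of -0.01 (9 of 18). It was -0.14 (1 of 18) both with those factors and with the covariate, and 0.06 (13 of 18) with background subtracted. Endothelial genes stood at 0.13 (12 of 14, and -0.01 with factors from genes above background). Pericyte and smooth muscle genes stood at 0.19 (10 of 11, and 0.07 with those factors). The 12 oligodendrocyte precursor genes had a median of 0.16, and the 29 silent genes of other organs -0.03. The part of these markers in the differences of single genes was not tested beyond the covariates named above.

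The stressed groups share the same 7 control libraries, so their differences from control are given side by side. For Car4 the log2 difference from control was -0.02 ± 0.13 in susceptible and -0.52 ± 0.14 in resilient mice, for Hspb1 -0.10 ± 0.26 and -1.01 ± 0.29, and for Dnaja1 -0.21 ± 0.20 and -0.80 ± 0.21. For Iglon5 it was 0.37 ± 0.12 in susceptible and 0.03 ± 0.12 in resilient mice, and for Fos 0.36 ± 0.24 and -0.22 ± 0.25. For Creb1 it was -0.26 ± 0.15 in susceptible and -0.21 ± 0.15 in resilient mice. None passed the adjustment, and at an unadjusted p under 0.05 there were 1086 genes (3.02%) for susceptible and 2206 (6.14%) for resilient mice against control. The astrocyte identity list had median differences from control of -0.19 in susceptible and -0.54 in resilient mice, the ribosomal list -0.19 and -0.54, and the oligodendrocyte list -0.74 and -1.02. Mean background cover was 53.2% in control, 56.0% in susceptible and 64.6% in resilient libraries. The differences from control were fitted without it as a covariate, so its part in them was not tested. NAc control replicate 3, with 941450 counts, is among the control libraries.

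The number of genes at an unadjusted p under 0.05 moved with single libraries and with the method. Without NAc resilient replicate 1, 2920 genes had an unadjusted p under 0.05, and among genes above background 1836 were higher and 43 lower in susceptible mice. The median of genes above background was then 0.20 and that of strongly expressed genes 0.48, yet 0 genes were called and the smallest adjusted p was 0.617. Leaving out NAc susceptible replicate 4, which had the lowest background cover of its group, left 550 genes, and leaving out NAc resilient replicate 7, with the fewest counts and the highest background cover of its group, left 663. Over all 40 settings tried, 0 genes were called, with smallest adjusted p values between 0.0904 and 1.

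**Figure D5:**
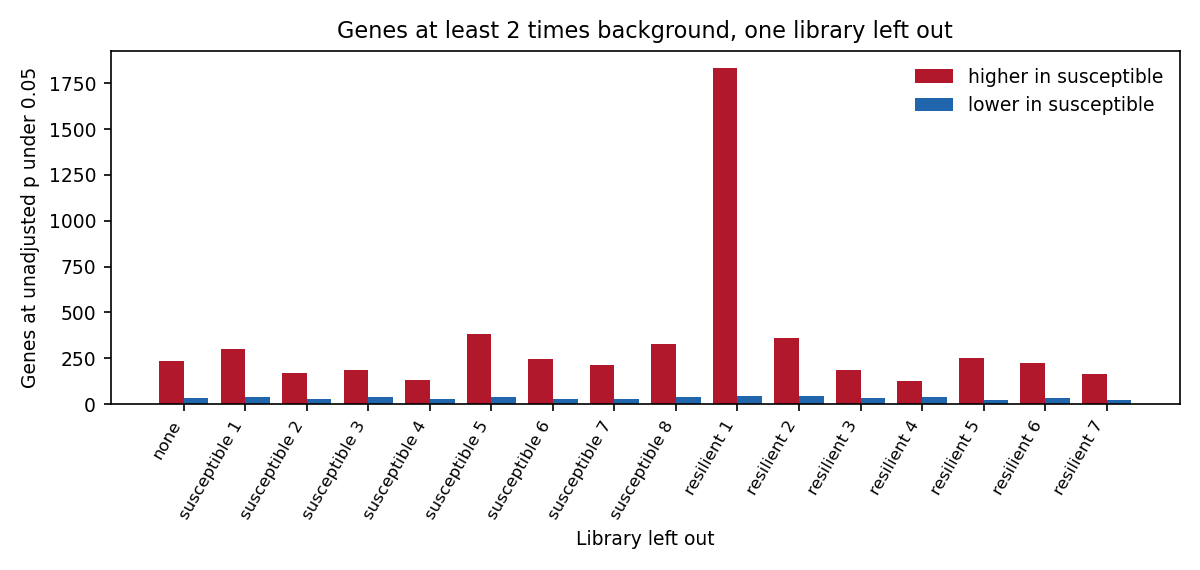
Genes at least 2 times background with an unadjusted p under 0.05, higher and lower in susceptible than in resilient NAc libraries (bars, from 0), with none or 1 library left out (x axis). The bar without NAc resilient replicate 1 reaches 1836 higher genes, against 237 with all libraries.

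The difference between susceptible and resilient mice was also set against that in the libraries labelled PFC, in 1 fit of all 39 libraries with 38171 genes. No gene differed between regions in this effect (0 called, 0%), and 349 genes (0.914%) had an unadjusted p under 0.05, with DESeq2 also calling 0. With the 16 couples of neighbouring sample numbers as a block (32 libraries, chosen after seeing the data), 0 genes were called and 352 had an unadjusted p under 0.05. Acta2, the actin of smooth muscle, had the smallest p, with a log2 difference of -0.17 ± 0.22 in the NAc and 1.25 ± 0.27 in the PFC. Atf5, a transcription factor of amino acid and unfolded protein stress, had 0.57 ± 0.26 in the NAc and -0.62 ± 0.32 in the PFC. Mospd3, Fgfbp1 and Prg4 completed the 5 smallest p, with NAc values of -0.05 ± 0.23, -0.30 ± 0.26 and -0.06 ± 0.42 and PFC values of 0.90 ± 0.29, 0.79 ± 0.34 and 1.60 ± 0.52. For Car4 the PFC difference was 0.00 ± 0.33, for Iglon5 -0.14 ± 0.17, for Hspb1 1.07 ± 0.57 and for Fos -0.12 ± 0.40, and these single differences between regions did not pass the adjustment. The astrocyte identity list had a PFC median of -0.01.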

How the data were processed

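RNA of the isolated cells was made into libraries with Takara's Pico kit for stranded total RNA, which does not select polyadenylated RNA, per the labels' protocols. The deposited counts are whole reads per gene, made by the authors with featureCounts on mm10 per the submitters' processing notes, while the strand used, the aligner, the annotation and all versions were not given in the sources used here. FPKM, also deposited, are these counts per gene length and library total, and the implied length equalled the whole GENCODE M21 gene span for 54229 of 54229 genes (relative tolerance 1e-06). Coordinates are those of that release on mm10.

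Counts were tested with edgeR 4.0.16 (R 4.3.3; quasi-likelihood, trimmed-mean scaling, default filter by group, robust dispersion) over the 22 NAc libraries in 3 groups, with p-values adjusted over 35943 genes and a threshold of 0.05. The test bounds p by a Poisson likelihood-ratio test, which raised it for 1506 genes and changed no call. Scripts were tested on simulated data. CPM use the scaling of this fit, values after ± are SE for log2 fold changes and SD for group means, and limits for a count of 0 cover counting error only. Alternatives used limma 3.58.1, DESeq2 1.42.0 and sva 3.50.0.

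The groups, the 39 lists (680 symbols, 676 tested) and the genes were chosen with earlier results of these data known. Among genes above background of average log2 CPM over 1, leaving out predicted genes, clone names and pseudogenes, the naming rule took per direction the 8 smallest p and the 4 largest changes at p under 0.05. It further took up to 4 members of each described list by smallest p, fixed CREB and astrocyte genes, and the 5 smallest interaction p. A few list members beyond these (Slc1a2, Glul, Arc, Egr1, Nr4a1, Per1 and Tsc22d3) were named after their values were seen, and a few genes that the rule took are not reported here. List counts cover all tested members, and 1 ID was used per symbol. Some genes are members of more than 1 list, as Aqp4 is of the astrocyte identity and endfoot lists, so the lists are not independent. Same-numbered susceptible and resilient libraries were not paired.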

Additional observations from a re-analysis of the deposited data

Results flagged for a closer look

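Among 219 sets of 7 or 8 libraries looked at, 24 held 1 library far from the others by Dixon's 95% criterion, which chance alone reaches in about 5% of sets. The values are given without explanation. NAc resilient replicate 1 stood above its group in summed CPM of the astrocyte identity list (16528, next 8839), the glutamate list (10471, next 5189), the heat shock list (1597, next 1019), the cholesterol list (2696, next 1520), the glycolysis list (2044, next 1175), the ribosomal list (602, next 342) and the pan-reactive list (378, next 298). The same library stood above its group for Gfap (59.99 CPM), Slc38a3 (158 CPM), Atp1b2 (463 CPM) and Slc1a3 (1685 CPM).

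NAc resilient replicate 7 had the highest Reg3g of its group (5.55 CPM, next 3.48). NAc susceptible replicate 4 had the lowest Grm5 (208 CPM, next 264), and NAc susceptible replicate 2 the highest mt-Atp6 (7.12 CPM, next 3.49).

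NAc control replicate 3, with 941450 counts in all, stood above its group for Eid2b (14.3 CPM), Fam84a (11.9 CPM), Gfap (40.5 CPM), Hap1 (88.1 CPM), Meg3 (1145 CPM) and the microglia and macrophage list (580 CPM). It stood below its group for Cd163 (10.7 CPM) and for Lgals2, at 0 CPM, which allows up to 3.19 CPM (3 counts of its total). NAc control replicate 6 had the highest Hmgcs1 (78.4 CPM) and Rpl15 (14.4 CPM). Control libraries enter the comparison of susceptible with resilient mice through the shared scaling and spread, the count filter and the mean level over background.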

How the results depend on the processing

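The count of called genes was 0 under all 40 settings, and for the difference between regions under its 5 alternatives (1 of them, the block by neighbouring sample numbers, chosen after seeing the data), with smallest adjusted p values of 0.113 for genes above background alone, 0.200 with background as a covariate, and 1.00 with DESeq2 and with the replicate block. The 1042 genes at an unadjusted p under 0.05 became 345 in the fit of all 39 libraries, 1604 with the 2 groups alone, 1744 with factors from genes above background, 1841 with no count filter, 1963 on background-subtracted FPKM, 2615 with 2 surrogate variables, 2935 with marker components, 2994 with voom weights, and 184 and 76 when only genes at 2 and 4 times background were tested. Leaving out 1 library gave 550 to 2920. The replicate number as a block gave 1416 genes and 0 calls, and same-numbered susceptible and resilient libraries deviated together (r over 0.1) in 2 of 7 pairs over genes with an average log2 CPM over 1, and in 4 of 7 over genes above 3, with 1 of 7 resilient libraries closest to its own number. The background difference of -8.56 points was -10.8 (exact p = 0.0366) without NAc resilient replicate 1 and -10.8 to -5.80 over libraries left out. Signs turned for Creb1 (0.0592 on background-subtracted FPKM, and -0.117 to 0.0211 with a library left out), Crem (0.101 with that FPKM, 0.0294 with the replicate block, and -0.0720 to 0.0453 with a library left out), Atf1 (-0.00894 with surrogate variables, -0.119 with factors from genes above background, -0.0653 with the covariate, -0.00187 with voom, -0.000644 with marker components, -0.109 for genes above background alone, and -0.0260 to 0.0553 with a library left out), Creb3l2 (-0.0298 with factors from genes above background, -0.0188 for those genes alone), with the covariate for Crebbp (-0.0464), Atp1b2 (-6.61e-05), Aldh1l1 (-0.0255) and Slc1a3 (-0.0291), and with voom for Meg3 (0.288). The cause was not tested. Genes near background cover, Creb1 among them, are limited by it.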
